A study of Mus musculus with 71 samples.

Results

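Of the 6326 RING1B ChIP peaks listed for mouse embryonic stem cells (ESC), 2914 (46.1%) were narrower than 4000 bp and overlapped, by at least 1 bp, an H3K27me3 interval called in ESC by CUT&RUN or by ChIP. These 2914 regions, called narrow marked peaks here, are described below by gene, sequence, CBX7, RING1B and H3K27me3. The remaining peaks were 2688 narrow peaks (42.5%) without H3K27me3 and 724 broad peaks (11.4%) of 4000 bp or more. The cells were of the J1 line, grown on feeder fibroblasts, and carried wild-type CBX7 (WT), CBX7-CaPS (CaPS) or CBX7-mCaPS (mCaPS). Knockout libraries were not analysed here. The series title describes the CaPS part as a Polycomb domain of committed cells. The meaning of the letters mCaPS, how the lines were made and whether each was 1 clone are not given in the sources used here. In ESC, 3 WT and 3 CaPS libraries each of CBX7 and RING1B ChIP came from experiments 1, 2 and 3, and 2 and 2 libraries of H3K27me3 ChIP from experiments 1 and 5. CUT&RUN of ESC gave 1 H3K27me3 library each for WT and CaPS and 1 RING1B column each for WT, CaPS and mCaPS. For differentiation, WT and CaPS cells were aggregated without LIF, treated with retinoic acid and collected on day 6 or 8 as neural progenitor cells (NPC), or were taken on day 10 as embryoid bodies (EB). RING1B ChIP at day 8 had 2 WT and 2 CaPS libraries, from experiments 3 and 4. A RING1B ChIP time course over ESC, day 6 and day 8 had 2 libraries per genotype and time, from experiments 3 and 5. Its experiment 3 libraries of ESC and of day 8 were the same ones as in the ESC and day-8 comparisons.

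Polycomb repressive complex 2 trimethylates lysine 27 of histone H3, and the chromodomain of CBX7 binds that mark and brings canonical Polycomb repressive complex 1 (PRC1) to it. RING1B is the ubiquitin ligase of PRC1 and is shared by canonical complexes, which carry a CBX subunit, and variant complexes, which do not. In ESC these proteins lie mainly at CpG-rich promoters of developmental genes that are silent or weakly expressed.

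The sequences upstream of 4 narrow marked peaks' genes show the base composition at which these peaks lay, and the upstream sequence of Stag3 is set beside them as the narrow peak without H3K27me3 with the highest RING1B among those centred on a start. They were taken from the 513 narrow marked peaks that were centred within 250 bp of a RefSeq start with a promoter sequence in the RefSeq table (GRCm38.p6). Dchs2, Pfdn4 and Gnas had the highest mean CBX7 in WT ESC and 1700048O20Rik the lowest. Peaks are named by their annotated gene, and the H3K27me3 ChIP peak overlapping the Pfdn4 peak in ESC was annotated to another gene, Cyp24a1. Each line gives the 250 bases before the start on the plus strand, 5′ to 3′, with every CG dinucleotide in capitals.
Dchs2: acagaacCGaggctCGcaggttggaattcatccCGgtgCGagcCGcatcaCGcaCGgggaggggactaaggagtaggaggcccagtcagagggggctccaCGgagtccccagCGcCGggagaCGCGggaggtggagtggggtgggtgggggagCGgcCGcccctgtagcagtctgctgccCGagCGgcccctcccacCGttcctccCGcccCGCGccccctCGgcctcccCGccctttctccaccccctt
Pfdn4: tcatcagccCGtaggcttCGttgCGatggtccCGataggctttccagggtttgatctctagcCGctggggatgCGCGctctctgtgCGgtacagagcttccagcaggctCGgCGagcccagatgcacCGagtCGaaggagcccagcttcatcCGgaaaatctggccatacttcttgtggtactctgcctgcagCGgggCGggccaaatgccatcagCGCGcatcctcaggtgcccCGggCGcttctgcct
Gnas: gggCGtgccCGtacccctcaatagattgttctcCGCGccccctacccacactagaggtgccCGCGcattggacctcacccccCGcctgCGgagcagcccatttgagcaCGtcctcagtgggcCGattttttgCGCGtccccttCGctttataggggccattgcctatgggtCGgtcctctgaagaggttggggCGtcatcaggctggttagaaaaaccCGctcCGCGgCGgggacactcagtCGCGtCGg
1700048O20Rik: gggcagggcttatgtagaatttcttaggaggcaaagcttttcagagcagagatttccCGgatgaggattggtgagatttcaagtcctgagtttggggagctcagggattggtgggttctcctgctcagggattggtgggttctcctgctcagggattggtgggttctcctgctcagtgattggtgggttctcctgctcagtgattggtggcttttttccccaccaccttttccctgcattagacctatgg
Stag3: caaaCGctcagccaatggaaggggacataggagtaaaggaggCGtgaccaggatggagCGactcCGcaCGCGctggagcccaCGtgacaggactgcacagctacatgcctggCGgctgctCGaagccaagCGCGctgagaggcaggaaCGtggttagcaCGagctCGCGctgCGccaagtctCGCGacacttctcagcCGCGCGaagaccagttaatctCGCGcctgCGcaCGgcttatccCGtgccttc
The windows were chr3:83127277-83127526 for Dchs2, chr2:170496178-170496427 for Pfdn4, chr2:174327518-174327767 for Gnas, chr9:121937025-121937274 for 1700048O20Rik and chr5:138280259-138280508 for Stag3. They held 22, 19 and 22 CG dinucleotides at Dchs2, Pfdn4 and Gnas, 1 at 1700048O20Rik and 26 at Stag3. Mean CBX7 in WT ESC was 486, 455 and 392 tags per 10 M at the first 3 peaks and 2.04 at 1700048O20Rik, where tags per 10 M are tags in the peak scaled to a library of 10000000 tags (10 M). Stag3, which encodes a meiotic cohesin subunit, had a mean RING1B of 166 and a mean CBX7 of 18.2 tags per 10 M in WT. Its RING1B was 21.2, 408 and 68.3 in experiments 1, 2 and 3, so that the mean, and with it the choice of this peak, rests on experiment 2. Dchs2, a large atypical cadherin, had a mean RING1B of 540.

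CpG density was shared by the narrow marked peaks as a group, although it did not set them apart from the other RING1B peaks. A RefSeq start lay inside 1263 of them (43.3%), giving 1573 upstream windows of 250 bases. The median window held 16 CG dinucleotides and had a GC content of 63.2%. GC above 50% together with an observed over expected CG ratio above 0.6 was found in 60.4% of these windows. The same held for 65.3% of windows at narrow peaks without H3K27me3, 58.6% at broad peaks and 30.8% of all 32841 RefSeq windows, whose median was 6 CG. The letters TATAAA, searched on both strands, occurred in 6.61% of the windows at narrow marked peaks, 5.36% at narrow peaks without H3K27me3, 6.46% at broad peaks and 12.4% of all RefSeq windows.

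The 2914 peaks were annotated to 2573 genes, and 94% had a protein-coding gene as the nearest one. Their median width was 1533 bp, against 651 bp for narrow peaks without H3K27me3. The centre lay within 1000 bp of a gene start at 72.5% of narrow marked peaks. This held for 71.99% of narrow peaks without H3K27me3 and 69.76% of all 6326 peaks. The ESC RING1B list held no peak farther than 9992 bp from a start, so distal peaks are missing from these shares. The annotation placed 37.7% in introns, 26.5% in promoters, 17.8% in exons, 9.71% in untranslated regions and 7.04% between genes. H3K27me3 was called at 1762 of them (60.5%) by both assays, at 1003 by CUT&RUN alone and at 149 by ChIP alone. Nearest the width limit, the peak of Foxi3 (3995 bp) was inside, with a mean WT RING1B of 385 tags per 10 M. Those of Lingo2 (4005 bp) and Gm13889 (4020 bp) were outside, with 347 and 512.

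Lineage transcription factors were mostly at broad peaks, while genes for signalling, axon guidance and neuronal excitability were often at narrow marked ones. Of 89 neural transcription factors, 10 had a narrow marked peak within 10 kb of the start and 67 a broad peak. Of 94 mesoderm and endoderm transcription factors, 23 had a narrow marked peak, among them Gata5, Sox18 and Twist2, and 62 a broad one. Of 62 Wnt pathway genes 32 had a narrow marked peak and 16 a broad one, and of 91 genes for FGF, BMP, TGF-beta and Hedgehog signalling 31 had a narrow marked and 25 a broad peak. Narrow marked peaks stood at 32 of 74 axon guidance genes and broad ones at 18. Of 44 cadherins and protocadherins, 12 had a narrow marked and 12 a broad peak. Narrow marked peaks stood at 90 of 155 neuronal receptors and ion channels and broad ones at 23. Among Polycomb and trithorax subunits 8 of 43 had a narrow marked peak, including Cbx2, a CBX paralogue of PRC1, and Phf19, a PRC2 accessory subunit. Of these 43 genes, 5 had a broad peak and 10 a narrow peak without H3K27me3. A gene may have peaks of more than one kind, and no enrichment was tested.

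Deposited library totals ran from 2.01 to 49.13 M tags. The narrow marked peaks held between 0.507% and 2.94% of a library's tags in CBX7 ChIP and between 0.739% and 3.93% in RING1B ChIP. In both genotypes the libraries of experiment 2 had the largest share, 2.94% and 1.23% in WT and CaPS for CBX7. Of 5 genes active in ESC, Pou5f1, Nanog and Zfp42 had no RING1B or H3K27me3 ChIP peak within 1 kb of their start, Klf4 had 2 RING1B peaks, of which 1 was narrow and marked, and Esrrb had 1 narrow marked peak. The feeder fibroblast list had 5 of 18 genes with a narrow marked peak. Whether feeder or other cells contributed to the signal was not tested, and fewer marked cells and less signal per cell cannot be told apart in bulk chromatin. Separate cultures are not named for the libraries of a group, and p-values therefore measure a spread among libraries that may be technical.

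With the deposited library totals, most narrow marked peaks had less CBX7 in CaPS than in WT ESC. Of the 2914, 1797 (61.7%) fell and 0 rose by limma at an adjusted p of 0.05, where over all 6326 peaks 44.3% fell and 0.0632% rose. None had a higher value at an unadjusted p of 0.05. DESeq2 called 4 higher, edgeR with TMM 21 and edgeR with the deposited totals 0. The libraries from which the ESC RING1B peaks were called are not given in the sources used here. If WT libraries weighed more in that calling, lower values in CaPS and few higher ones are favoured by the selection. In WT the median peak held 25.1, 58.7 and 23.2 tags per 10 M in experiments 1, 2 and 3, and in CaPS 11.4, 24.7 and 14.3. Each CaPS median was thus below its WT partner of the same experiment, although the CaPS value of experiment 2 was about as high as the WT values of experiments 1 and 3. By experiment the median log2 ratio was −1.11, −1.21 and −0.63 in the 3 experiments (SD 0.31, n = 3), and 78.5% of the peaks were below 0 in all 3. The fitted median was −0.99, a ratio of 0.502, against −0.85 over all peaks. 

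**Figure D1:**
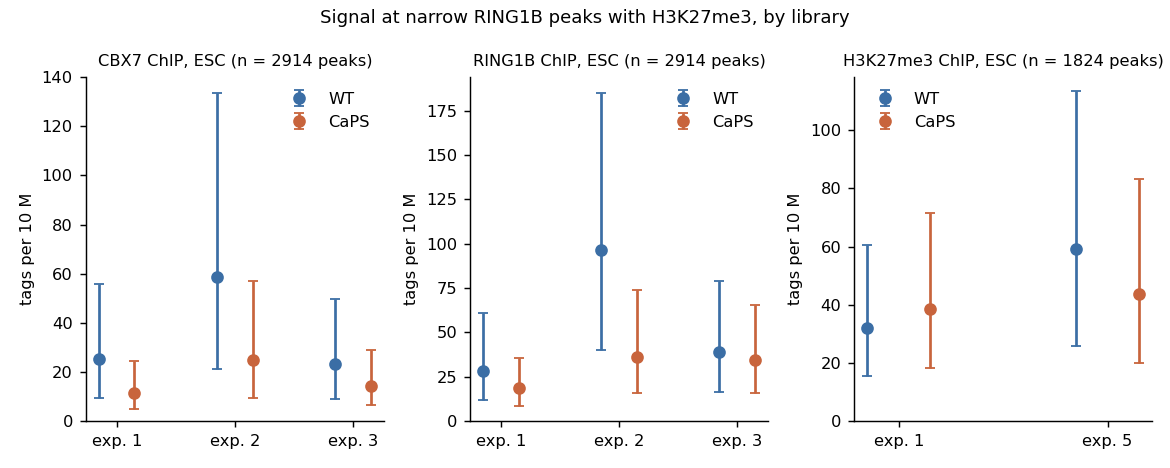
Median signal at narrow marked peaks in each ESC ChIP library, in tags per 10 M on a linear axis, for CBX7 and RING1B (2914 peaks each) and H3K27me3 (1824 peaks); points are the medians over peaks of 1 library, bars run from the first to the third quartile of the peaks, and WT and CaPS stand side by side within an experiment. Every CaPS median of CBX7 and RING1B lies below the WT median of the same experiment, whereas for H3K27me3 CaPS lies above WT in experiment 1 and below it in experiment 5.

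These counts depend on the scaling and on pairing within experiments, and the median depends on the scaling. When each library was scaled to the same sum over the peaks, which moved the median of all peaks by 0.96 on the log2 scale, 39 narrow marked peaks fell and 18 rose. Their median log2 ratio was then −0.004. edgeR with TMM gave 189 lower (median −0.12) and DESeq2 116 lower (median −0.13), and without the experiment block limma called 1. Leaving out experiment 1, 2 or 3 gave 852, 1175 or 1745.

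Wider narrow marked peaks held more CBX7 per length and were called more often. Below 1000 bp the median WT level was 10.3, 23.4 and 10.5 tags per 10 M per kb in the 3 experiments, and 216 of 930 peaks (23.2%) fell. From 1000 to 1999 bp it was 16.5, 38.1 and 15.2 per kb, and 623 of 937 (66.5%) fell. From 2000 to 3999 bp it was 26.5, 63.4 and 23 per kb, and 958 of 1047 (91.5%) fell. In these classes the median log2 ratio was −0.74, −0.996 and −1.11. Peaks marked in both assays fell in 1277 of 1762 cases (72.5%), those marked by CUT&RUN alone in 453 of 1003 (45.2%) and those marked by ChIP alone in 67 of 149 (45%). Their median widths were 1924, 995 and 1022 bp.

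The strongest CBX7 peaks that fell included cadherins of sensory cells and of planar polarity. At Dchs2 (chr3:83126293-83130086, exon 1) CBX7 was 350, 828 and 281 tags per 10 M in WT and 91.6, 314 and 120 in CaPS. The log2 ratio was −1.51 (SE 0.27, limma adjusted p = 9.38e-07), and each CaPS library was below its WT partner. At Cdh23, a cadherin of hair-cell tip links, WT had 351, 867 and 276 and CaPS 119, 428 and 169. Ndnf, which encodes a secreted neuron-derived factor, had 279, 750 and 240 tags per 10 M in WT and 87.6, 184 and 105 in CaPS. Its log2 ratio was −1.62 (SE 0.27, limma adjusted p = 1.55e-07), and the groups did not overlap. Ucn, a neuropeptide of the CRF family, and Hspa2, a heat shock protein, fell by 1.17 and 1.48 on the log2 scale. The peak annotated to Pfdn4, a prefoldin subunit, had 252, 841 and 274 tags per 10 M in WT and 73.1, 236 and 111 in CaPS. Every CaPS value was thus below every WT value. Its H3K27me3 ChIP peak was annotated to Cyp24a1, so the values belong to the interval and cannot be assigned to Pfdn4 alone. The largest log2 ratios came from weak peaks: at Grb14, an adaptor of receptor tyrosine kinases, WT had 22.8, 42.4 and 21.8 and CaPS 9.95, 0 and 8.55. A count of 0 in the CaPS library of experiment 2 allows up to 11.4 tags per 10 M (3 tags, counting error only), so the size of this change is uncertain. Rgs2, a regulator of G-protein signalling, and Slc4a4, a bicarbonate cotransporter, also had 0 in that library.

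Among the Wnt genes CBX7 fell at 26 of 32, with a median log2 ratio of −1.17, where 61.7% of narrow marked peaks and 44.3% of all peaks fell. In this and the other lists a gene counts once, by its narrow marked peak with the highest mean WT RING1B. The share of 61.7% covers all narrow marked peaks, and calls ran from 23.2% below 1000 bp to 91.5% from 2000 bp. Whether the list shares reflect peak width or level was not tested. The ligand Wnt7a had 165, 499 and 167 tags per 10 M in WT and 63.7, 129 and 73.7 in CaPS. The receptor Fzd2 had 159, 500 and 153 in WT and 49.8, 156 and 76.7 in CaPS, and Rspo3, a secreted enhancer of Wnt signalling, fell by 1.58 on the log2 scale. At Wnt7a, every CaPS value was below every WT value; at Fzd2 the highest CaPS value lay between the WT values. In the FGF, BMP, TGF-beta and Hedgehog list 26 of 31 fell (median −1.04), with Fgf3 at −1.17 and Fgf15 at −1.01. Of the 6 retinoic acid genes 5 fell, among them Crabp1, a retinoic acid binding protein, at −1.37 and Aldh1a3, an enzyme that makes retinoic acid, at −0.98.

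Of 90 neuronal receptors and ion channels 69 fell (median −1.10), including the potassium channel Kcnk13 at −1.36, the adrenergic receptor Adra2b at −1.13 and the potassium channel Kcnd3 at −1.50. Of 32 axon guidance genes 25 fell (median −1.02), including the Eph receptors Ephb1 at −1.14 and Epha5 at −1.44. Of 12 cadherins and protocadherins 11 fell (median −1.44). For comparison, the share was 4 of 10 among neural transcription factors (median −0.85) and 11 of 23 among mesoderm and endoderm transcription factors (median −0.76). These medians lie beside −0.85 over all 6326 peaks.

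Some narrow marked peaks did not pass the test. Cbx2 had 50.6, 172 and 55.2 tags per 10 M of CBX7 in WT and 36.3, 93.2 and 50.5 in CaPS, a log2 ratio of −0.49 (SE 0.28, limma adjusted p = 0.15). Of the 8 Polycomb and trithorax genes 3 fell, among them Phf19 at −1.14. Among 4 pluripotency genes 1 fell, Esrrb, a nuclear receptor of the pluripotency network, at −1.29, while Klf4 had −0.50 and Gbx2 0.35. Among 6 germ cell genes 1 fell, the receptor Kit at −0.77. Tdrd1, a tudor protein of the germline piRNA pathway, had CBX7 of 8.38, 14.7 and 8.20 in WT and 11.4, 13.3 and 5.80 in CaPS, and the groups overlapped. All 5 feeder fibroblast markers with such a peak fell, Thy1 by 1.48 and Col5a1 by 1.06 on the log2 scale.

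**Figure D2:**
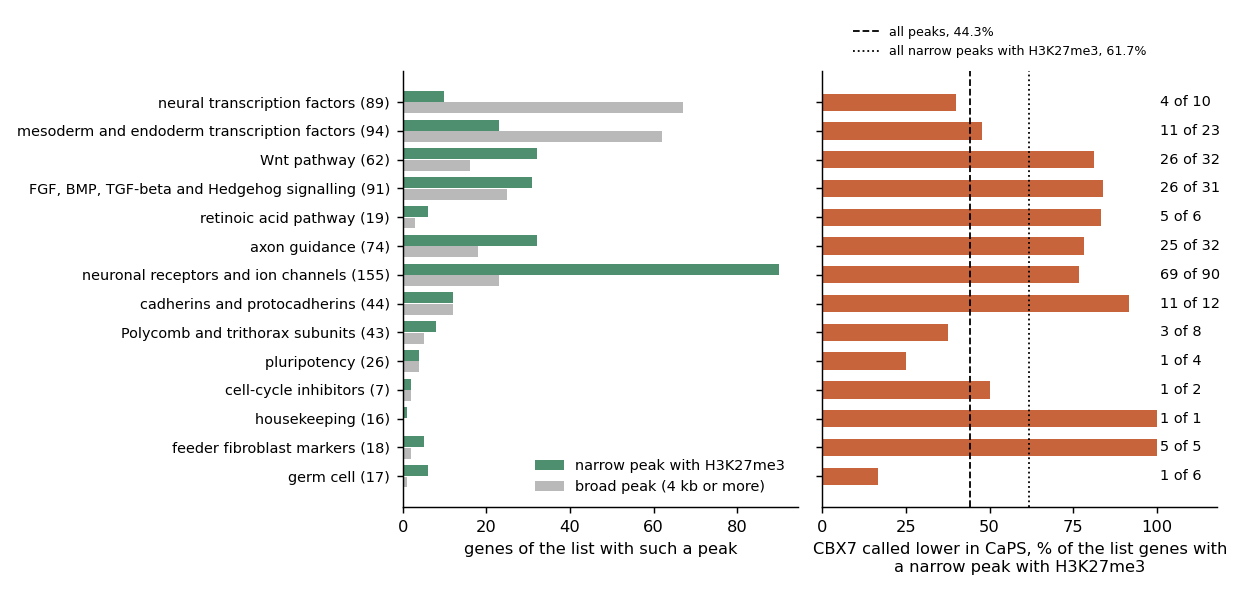
Gene lists, with the number of genes in each list in brackets: on the left, the number of genes with a narrow marked peak or a broad peak, and on the right, the percent of list genes with a narrow marked peak at which CBX7 was called lower in CaPS, with the counts at the side. The dashed line marks 44.3% over all peaks and the dotted line 61.7% over narrow marked peaks. Each gene counts once, by its narrow marked peak with the highest mean WT RING1B, whereas the dotted line covers all such peaks. Lists with few genes, such as the 1 housekeeping gene, give shares of little weight.

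RING1B at the same peaks was also lower in CaPS in the median, but few peaks passed the test. Of 2914 narrow marked peaks 7 (0.240%) fell and 0 rose by limma, against 0.142% lower and 0% higher over all peaks. Of them, 677 were lower and 0 higher at an unadjusted p of 0.05. The limit given for CBX7, that the calling of the peaks may favour lower values in CaPS, holds here too. DESeq2 called 6 lower and edgeR with TMM 0, and neither called any higher. The median peak held 28.2, 96.4 and 38.8 tags per 10 M in WT and 18.7, 35.9 and 34.5 in CaPS. The experiments differed: the median log2 ratio was −0.68, −1.29 and −0.21 (SD 0.54, n = 3), with a fitted median of −0.75 against −0.67 over all peaks. Scaled to the same sum over the peaks, the median was 0.004. Without experiment 3 the test called 427 peaks, without experiment 2 14 and without experiment 1 0. Without the experiment block it called 0.

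**Figure D3:**
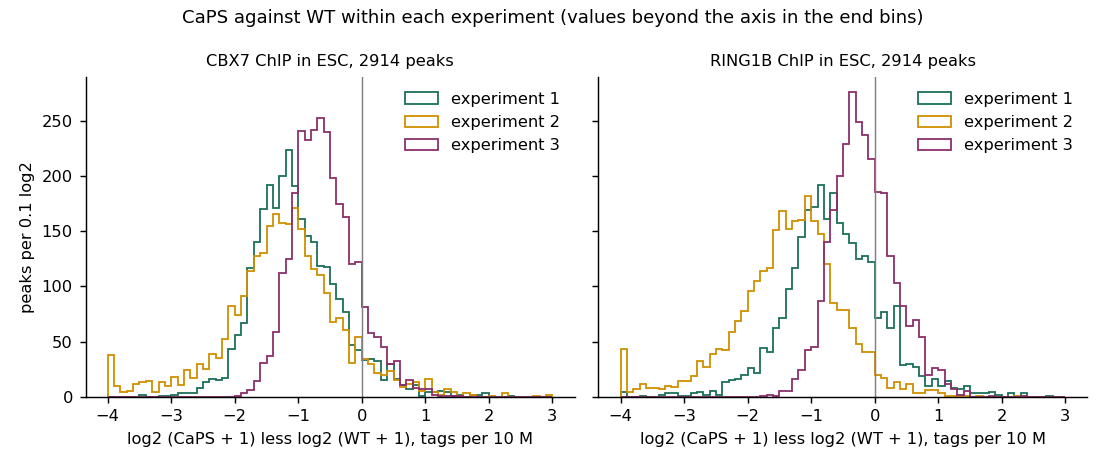
Distribution over the 2914 narrow marked peaks of the log2 ratio of CaPS to WT for CBX7 and RING1B in each experiment, with values beyond the axis in the end bins. The RING1B medians were −0.68, −1.29 and −0.21 in experiments 1, 2 and 3, and the CBX7 medians −1.11, −1.21 and −0.63.

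The 7 peaks with lower RING1B were at Zfpm1, Cdh8, Fam155a, Nkd1, Pparg, Ano10 and Slc24a3. At Cdh8, a neuronal cadherin, RING1B was 220, 531 and 329 tags per 10 M in WT and 45, 115 and 153 in CaPS, so every CaPS value was below every WT value. The log2 ratio was −1.86 (SE 0.40, limma adjusted p = 0.0239). At Zfpm1, a cofactor of GATA factors, WT had 184, 685 and 320 and CaPS 61.9, 126 and 149, again without overlap. Nkd1, an inhibitor of Wnt signalling, had 71.2, 271 and 150 in WT and 18.7, 51.7 and 48.2 in CaPS. At Pparg, a nuclear receptor of fat cells, the log2 ratio was −1.75. Ano10 and Slc24a3 were at 0 in the CaPS library of experiment 2, where 3 tags correspond to 13.5 tags per 10 M. Zfpm1, Cdh8, Fam155a and Nkd1 are all on chromosome 8, which held 4.94% of the narrow marked peaks, and Pparg is on chromosome 6. With chromosomes 6 and 8 left out, an alternative added after the data were seen, 2 peaks were called. Over all narrow marked peaks of chromosomes 8 and 6 the median log2 ratio was −0.96 and −0.93 for RING1B and −1.22 on both for CBX7, the lowest of any chromosome for each protein. CBX7 fell at 79.2% of the narrow marked peaks of chromosome 8 and at 67.6% of those of chromosome 6, which holds Ndnf and Wnt7a. The share of chromosome 6 was below the 78.95% of chromosome X and the 76.27% of chromosome 17. Without chromosomes 6 and 8 CBX7 was called lower at 1562 narrow marked peaks, with a median of −0.97. The part of chromosomes 6 and 8 in the values of single genes was not tested.

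The CBX7 and RING1B ratios were compared within each experiment. No peak passed the test of the difference by limma, with 208 lower and 15 higher at an unadjusted p of 0.05, and 0% called over all peaks. The CBX7 ratio was below the RING1B ratio by a median of 0.39 and 0.43 on the log2 scale in experiments 1 and 3, and above it by 0.06 in experiment 2. Without experiment 2 the test called 164. At Grb14 the difference was −2.21 (SE 0.65) and at Boll, a germ-cell RNA-binding protein, −1.36 (SE 0.38), both with a limma adjusted p of 0.44.

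Narrow marked peaks differed in level from narrow peaks without H3K27me3. In WT the median CBX7 was 25.1, 58.7 and 23.2 tags per 10 M at marked peaks and 3.81, 8.96 and 4.81 at unmarked ones, or 17.0, 39.2 and 15.3 against 5.74, 12.9 and 6.79 per kb. For RING1B the levels per kb were 19.5, 63.0 and 25.6 at marked and 9.90, 56.3 and 15.7 at unmarked peaks. The median log2 ratio of CBX7 to RING1B in WT was higher at marked than at unmarked peaks by 0.73 (SD 0.64, n = 3 experiments), with the same sign in all 3. The CaPS to WT ratio of CBX7 was lower at marked than at unmarked peaks by a mean of 0.54 on the log2 scale (SD 0.17, n = 3), also in all 3. In a two-sided exact sign-flip test over experiments both had p = 0.25, the smallest that 3 experiments allow, and 0.625 after Benjamini-Hochberg adjustment over 10 comparisons. Unmarked peaks had median CBX7 of 2.99, 5.70 and 4.48 in CaPS, where 3 tags correspond to 2.98, 11.4 and 0.611, and the pseudocount of 1 pulls ratios at such levels towards 0. Against broad peaks the CBX7 ratio differed by 0.10 (SD 0.09; exact sign-flip p = 0.25). CBX7 fell at 12.2% of narrow peaks without H3K27me3 and at 93.4% of broad peaks.

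H3K27me3 at the narrow marked peaks showed no change that passed the test. Of 1824 ChIP peaks of the mark that overlapped them, 0 were called by limma in either direction, with 5 lower and 9 higher at an unadjusted p of 0.05 and 0% called over all 9195. In experiment 1 the median log2 ratio of CaPS to WT was 0.25 and in experiment 5 −0.40, so the experiments went opposite ways. Scaled to the same sum, 11 fell and 6 rose. edgeR with TMM called 16 lower and 4 higher, and DESeq2 2 lower. At Ndnf, H3K27me3 was 129 and 279 tags per 10 M in WT and 112 and 139 in CaPS. Wnt7a had 110 and 244 in WT against 143 and 122.6 in CaPS, and at both genes the groups overlapped. At Esrrb, with 122.5 and 189 in WT and 150 and 141 in CaPS, they overlapped as well. Within experiments, CaPS was below WT in both at Ndnf, but only in experiment 5 at Wnt7a and Esrrb.

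In CUT&RUN, with 1 H3K27me3 library per genotype and therefore no test, the median over 2444 overlapping intervals was 89.9 tags per 10 M in WT and 102 in CaPS. The values cover whole intervals, whose median width was 5212 bp, against 1533 bp for narrow marked peaks. Of these intervals, 279 were matched to more than 1 narrow marked peak and 96 also overlapped a broad ESC RING1B peak. Among the 2444, 13 (0.532%) were more than 2-fold lower and 72 (2.95%) more than 2-fold higher in CaPS, against 0.873% and 4.2% over all intervals. Its median log2 ratio was 0.21, and −0.12 when both libraries were scaled to the same sum. Notum, an extracellular Wnt deacylase, had 54.1 in WT and 181 in CaPS, a ratio of 3.34 (95% interval 2.60 to 4.32, counting error only). Cnpy1, a regulator of FGF signalling, had 28 and 91.2. Abca1, a cholesterol exporter, had 15.0 in WT and 57.3 in CaPS. At Tmc7 and Pcdh18 the mark was lower in CaPS, at 115 against 270 and 28.7 against 57.4.

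RING1B CUT&RUN in ESC allowed mCaPS to be set beside CaPS, with 1 column per genotype and no test. A RING1B CUT&RUN peak overlapped 88.5% of the narrow marked peaks, and the 2407 distinct intervals had a median of 39.8 tags per 10 M in WT, 22.5 in CaPS and 18.1 in mCaPS. In CaPS 718 (29.8%) were more than 2-fold lower than in WT and 1 more than 2-fold higher, where the shares over all intervals were 22.5% and 0.455%. In mCaPS 1485 (61.7%) were more than 2-fold lower than in WT and 0 higher, against 44.9% and 0.356%. The limit given for ChIP, that the calling of the peaks may favour lower values in CaPS, holds here too. Intervals at narrow marked peaks were also stronger, with a WT median of 39.8 against 17.55 over all intervals. The pseudocount of 1 pulls ratios of weak intervals towards 0. Between the 2 altered forms, 164 (6.81%) were more than 2-fold lower and 23 (0.956%) higher in mCaPS than in CaPS, against 10.1% and 3%. Median log2 ratios were −0.79 for CaPS to WT, −1.13 for mCaPS to WT and −0.34 for mCaPS to CaPS. With equal sums over the peaks these were −0.20, −0.02 and 0.17, so the sign of the last depends on the scaling. 

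Among intervals with at least 50 tags per 10 M in 1 library the lowest CaPS to WT ratio was at Tac1, the precursor of substance P, with 71.0 tags per 10 M in WT and 17.6 in CaPS (ratio 0.249, 95% interval 0.147 to 0.398). Ndnf had 167 in WT, 55.1 in CaPS and 47.6 in mCaPS. Cdh8 had 90.6, 33.1 and 27.8, and Dchs2 124, 67.9 and 43.2. Both altered forms were below WT at these 3 genes. Cbx2 had 62.1 in WT, 57.3 in CaPS and 26.9 in mCaPS, so that CaPS was near WT and mCaPS was not. The lowest mCaPS to WT ratio was at Ptger3, a prostaglandin receptor, at 0.168 (0.0747 to 0.307), and Pgr, the progesterone receptor, had 0.214 (0.134 to 0.328). Rfxap, a regulator of MHC class II genes, had 73.1 in WT and 73.2 in mCaPS. In CaPS 9 intervals were listed at 0, of which 4 lay together on chromosome 1 at Creg2, Fhl2, Il1rl2 and Tbc1d8 and 4 on chromosome 5.

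**Figure D4:**
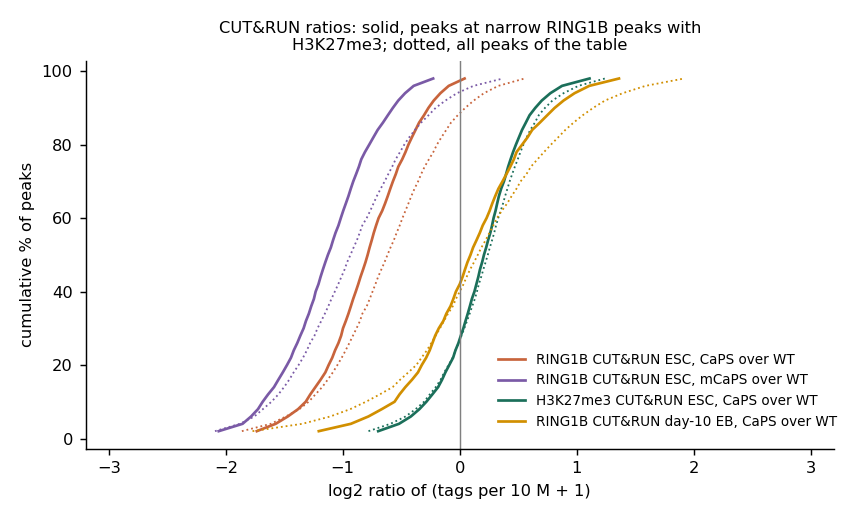
Cumulative percent of intervals, from the 2nd to the 98th percentile, against the log2 ratio of tags per 10 M + 1 in CUT&RUN, each ratio from 1 column per genotype; solid curves are intervals at narrow marked peaks, dotted curves all intervals of the table, and the vertical line marks equal values. At narrow marked peaks the RING1B curve of ESC lies left of 0 over the plotted range for mCaPS and passes 0 at its upper end for CaPS, with medians of −1.13 and −0.79 against WT, while both dotted curves pass 0 at lower percentiles; the solid curves of H3K27me3 and of RING1B in day-10 EB have medians of 0.21 and 0.09.

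Many narrow marked peaks had no counterpart in differentiated cells. A day-8 NPC RING1B peak overlapped 1554 of the 2914 (53.3%), a day-10 EB RING1B CUT&RUN peak 56.1%, and a day-8 NPC H3K27me3 peak 73.3%. Both kinds of RING1B peak were present at 1115 (38.3%) and neither at 840 (28.8%). Narrow peaks without H3K27me3 had 24.4% and 42.4%, and broad peaks 95.3% and 95.2%, at day 8 and in EB. Width went with this: the day-8 share was 24.7% below 1000 bp, 53.5% from 1000 to 1999 bp and 78.6% from 2000 to 3999 bp. The libraries from which each list was called are not given in the sources used here and depths differed, so a missing peak is not a measured loss. Requiring an overlap of 50% lowered the shares to 29.8% at day 8 and 29.7% in EB. The EB shares also cross assays, from ChIP in ESC to CUT&RUN in EB. Within ESC a RING1B CUT&RUN peak overlapped 88.5% of narrow marked peaks, 74.4% of narrow peaks without H3K27me3 and 99.7% of broad peaks.

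Levels over the time course were read at the 2485 time-course peaks that overlapped 2682 narrow marked peaks. Their median width was 2435 bp. Narrow marked peaks were selected as RING1B peaks of ESC, whereas the table also holds peaks of later times, so a fall from ESC and a share above that of all peaks are favoured by the selection and are given as a description. In WT the median was lower at each later time in both experiments, going from 58.6 tags per 10 M in ESC to 27 at day 6 and 19.1 at day 8 in experiment 3, and from 60.5 to 32.4 and 26.6 in experiment 5. In CaPS it went from 51.7 to 30.5 and 24.7 in experiment 3, and from 57.9 to 59.9 and 34.3 in experiment 5. Between ESC and day 8, 1518 peaks (61.1%) fell and 6 rose in WT by limma, against 20.9% and 1.73% of all 15091 peaks. In CaPS 858 (34.5%) fell and 36 rose, against 14.1% and 1.63%. The 15091 peaks also include weaker and more distal ones. Their median in WT ESC of experiment 3 was 7.26 tags per 10 M, and 61.14% lay within 10 kb of a start. Of the 1518 and 858 peaks that fell, 771 were shared, 50.8% of the WT list and 89.9% of the CaPS list. The median log2 ratio was −1.38 in WT and −0.93 in CaPS, beside −0.61 and −0.48 over all peaks. Scaled to the same sum, 370 fell and 129 rose in WT and 267 fell and 151 rose in CaPS. Without the experiment block the CaPS count was 407. Of the 2485 peaks 71 also overlapped a broad ESC peak. Leaving them out, as added after the data were seen, gave 1469 lower in WT and 817 in CaPS.

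**Figure D5:**
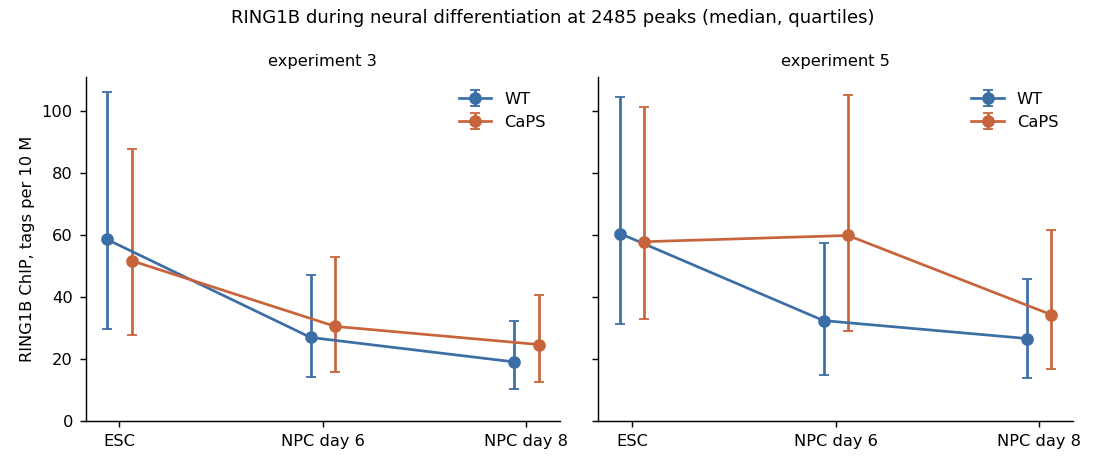
Median RING1B ChIP signal, in tags per 10 M, at the 2485 time-course peaks overlapping narrow marked peaks in ESC and at day 6 and day 8, with a panel for each experiment and a line for each genotype; points are medians over peaks of 1 library and bars run from the first to the third quartile of the peaks. WT medians were lower at each later time, while the CaPS median of experiment 5 was 57.9 in ESC, 59.9 at day 6 and 34.3 at day 8.

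Among the gene lists, ion channels and signalling genes gave the most peaks. Of 83 peaks at neuronal receptors and ion channels 56 fell and 1 rose in WT, and 32 fell and 1 rose in CaPS, beside 61.1% and 34.5% lower over all narrow marked peaks. Of 31 peaks at Wnt genes 25 fell in WT and 13 in CaPS, where 2 rose. At the ligand Wnt7a RING1B was 283 and 238 tags per 10 M in WT ESC of experiments 3 and 5 and 28.8 and 54.0 at day 8. In CaPS it was 166 and 178 in ESC and 31 and 59.7 at day 8. The groups of ESC and day 8 did not overlap in either genotype. At Cdh8, values fell from 340 and 356 to 59.7 and 61.3 in WT and from 157 and 203 to 58.6 and 93.0 in CaPS. Kcna5, a potassium channel, went from 81.4 and 116 to 8.89 and 8.06 in WT, a log2 ratio of −3.37 (limma adjusted p = 2.20e-12).

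Of 6 peaks at germ cell genes 5 fell in each genotype, where 61.1% in WT and 34.5% in CaPS fell over all narrow marked peaks and 20.9% and 14.1% over all peaks. Their median log2 ratios were −2.31 in WT and −2.50 in CaPS. Stk31, a germ cell kinase, went from 31.2 and 53.2 to 3.81 and 7.26 in WT and from 34.4 and 43.4 to 3.75 and 1.96 in CaPS. Spata22, a meiotic recombination factor outside that list, had 81.1 and 93.0 tags per 10 M in CaPS ESC and 4.93 and 3.92 at day 8. In WT it had 46.2 and 66.0 in ESC and 7.20 and 11.3 at day 8. Day-8 values of both genes were below the ESC values in all 4 pairs.

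A small number of peaks gained RING1B. Cacna2d1, a calcium channel subunit, rose in WT from 140 and 143 tags per 10 M to 463 and 1262, and in CaPS from 126 and 134 to 363 and 630. Nexmif, an X-linked gene of neurite extension, rose from 26.9 and 44.0 to 108 and 83.8 in WT and from 50.3 and 57.9 to 222 and 404 in CaPS. At Tcf24, a helix-loop-helix factor, the values went from 127 and 127 to 262 and 376 in WT and from 152 and 194 to 508 and 909 in CaPS. These values cover whole time-course intervals, which spanned 11901 bp at Cacna2d1, 3649 bp at Nexmif and 7158 bp at Tcf24. Galnt3, a glycosyltransferase, passed the test in CaPS, with 87.0 and 90.9 in ESC and 289 and 620 at day 8. In WT it had 98.1 and 88.0 in ESC and 144 and 207 at day 8, with a limma adjusted p of 0.0542.

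The course itself differed between genotypes at 8 of the 2485 peaks, all with less loss or more gain in CaPS, and at 0 in the other direction. By limma 0.199% of all peaks were called in the first direction and 0.0729% in the second, and at narrow marked peaks 288 were higher and 16 lower at an unadjusted p of 0.05. edgeR with TMM called 17 higher and 4 lower, DESeq2 18 and 4, and the fit without the experiment block 0. With equal sums over the peaks 9 were higher and 8 lower, so that the direction was no longer one-sided. Among the 8 were peaks at Tox, Fut4, Lrig1, Ralyl, Mecom, Sall2 and Ndnf. At Tox, a nuclear HMG-box protein, RING1B went from 98.6 and 97.2 tags per 10 M in WT ESC to 52.1 and 37.1 at day 8. In CaPS it went from 41.1 and 68.2 to 122.9 and 226. The difference of courses was 2.77 (SE 0.52, limma adjusted p = 0.000636), and WT fell while CaPS rose in both experiments. Ndnf went from 451 and 396 to 107 and 86.3 in WT and from 230 and 289 to 179 and 345 in CaPS. Mecom, a zinc-finger transcription factor, had 95.4 and 84.3 in WT ESC and 94.8 and 59.7 at day 8, and 116 and 82.7 in CaPS ESC and 263 and 534 at day 8.

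CaPS and WT were compared at each time as well. In time-course ESC 0 peaks were lower and 2, at Dcdc2a and Ncoa2, higher in CaPS (0.0265% and 0.0398% of all peaks), with 124 lower and 45 higher at an unadjusted p of 0.05. edgeR with TMM called 9 lower and DESeq2 29. The median log2 ratio there was −0.12, against −0.75 in the RING1B table of ESC from experiments 1, 2 and 3. Experiment 3 entered both tables, with different library totals, and gave −0.22 here and −0.21 there. At day 6, 173 peaks (6.96%) were higher and 2 lower in CaPS, against 3.66% and 0.325% of all peaks. By experiment the median log2 ratio was 0.17 in experiment 3 and 0.85 in experiment 5. The WT day-6 library of experiment 5, with 2.01 M tags, had 93 of these peaks at 0, and without the experiment block 42 were called. edgeR with the deposited totals called 38 higher and 0 lower, edgeR with TMM 24 and 10, and DESeq2 20 and 20. With equal sums 82 were higher and 25 lower. The imbalance towards higher values in CaPS thus depends on the scaling and was absent with DESeq2. At Prok2, a secreted prokineticin, WT had 111 and 110 and CaPS 230 and 529 at day 6.

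At day 8, 39 peaks (1.57%) were higher and 1 lower in CaPS, against 0.769% and 0.245% of all peaks, and the median log2 ratio was 0.35 in both experiments. Zswim5, a zinc-finger protein, had 77.0 and 45.2 tags per 10 M in WT and 251 and 463 in CaPS (log2 ratio 2.51, SE 0.36, limma adjusted p = 9.90e-09). Ralyl, an RNA-binding protein, had 273 and 268 in WT and 775 and 1419 in CaPS, and the groups did not overlap at either gene. Without the experiment block 8 were called. Scaled to the same sum, 40 were higher and 19 lower, and DESeq2 called 34 higher and 15 lower. In the other day-8 table, of experiments 3 and 4, 1531 peaks overlapped narrow marked peaks and 0 were called by limma (0% of all), with 46 lower and 20 higher at an unadjusted p of 0.05. There the median log2 ratio was 0.30 in experiment 3 and −0.98 in experiment 4, so the 2 experiments disagreed. The experiment 3 libraries were those of the time course, so only experiment 4 added new libraries. edgeR with TMM called 6 lower and 48 higher and DESeq2 1 and 26. Ndnf had 88.0 and 98.5 in WT and 165 and 164 in CaPS in experiments 3 and 4.

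H3K27me3 at day 8 was given as 1 pooled column per genotype, from totals of 4.47 M tags in WT and 32.88 M in CaPS. The 2007 intervals at narrow marked peaks had a median width of 2705 bp, and 40 of them also overlapped a broad ESC RING1B peak. Of the 2007, 649 (32.3%) were more than 2-fold lower and 23 (1.15%) more than 2-fold higher in CaPS, against 53.1% and 2.8% of all intervals. The median log2 ratio was −0.79, and 0.19 with equal sums, so its sign depends on the scaling. Zfpm1 had 245 tags per 10 M in WT and 22.4 in CaPS, a ratio of 0.0912 (95% interval 0.0661 to 0.122, counting error only). Sall2, a zinc-finger protein, had 17.9 in WT and 85.0 in CaPS (ratio 4.75, interval 2.38 to 11.1). In day-10 EB, RING1B CUT&RUN at 1597 intervals had a median log2 ratio of 0.09, with 54 (3.38%) more than 2-fold lower and 95 (5.95%) more than 2-fold higher in CaPS, against 7.24% and 13.1% of all. Ndnf had 142 in WT and 65.4 in CaPS there (ratio 0.461, interval 0.346 to 0.599), the reverse order of its day-8 RING1B values. Chst11, a chondroitin sulfotransferase, had 22.8 in WT and 50.0 in CaPS (ratio 2.20, interval 1.40 to 3.59).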

How the data were processed

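ChIP and CUT&RUN peak tables of mouse ESC, NPC and EB were used. The deposited tables give, per the file headers, mm10 intervals with annotations and a normalised signal per library: the tags in each peak at a library size of 10 M. HOMER 4.10.4, SAMtools 1.9, Bowtie2 2.3.4.3 and cutadapt 1.14 are named, with builds mm10 and dm6, in the submitters' processing notes. Peaks were called over input for ChIP and over IgG for CUT&RUN, per the series design text. Drosophila chromatin was spiked into the ChIP samples, per the labels' protocols; the sources used here do not say whether the totals include that correction. Values times header totals were whole numbers of read ends (a read end is 0.5 tag) in 100% of cases, to within 0.1 read end. In all, 2 columns of per-sample values could not be assigned and were not used.

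Narrow marked peaks were selected by width and overlap. In other tables the peak of largest overlap was used. Tests used limma 3.58.1 in R 4.3.3 on log2(value + 1), with empirical Bayes moderation, a trend, Benjamini-Hochberg adjustment over all peaks of a table and a threshold of 0.05. Fold changes of weak peaks are understated on that scale. The prior degrees of freedom were infinite except for the difference of CBX7 and RING1B ratios, so a p-value reflects the spread usual at that signal level. The experiment number was a block, from the design text's statement that compared experiments were run together; same-numbered libraries correlated, after group means were removed, at 0.043 to 0.303 for CBX7, −0.020 to 0.229 for RING1B, 0.094 for H3K27me3, 0.253 at day 8 and 0.065 to 0.215 in the time course. edgeR 4.0.16 and DESeq2 1.42.0, run on recovered read ends, were alternatives. Tables scaled separately were tested separately. The limma script was run on simulated counts without experiment effects or a shift of most peaks. That run therefore cannot show how the calls behave under the scaling and block differences given above. Groups with 1 column have ratios and 95% counting intervals, and PCR duplicates make these too narrow.

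The members and the 14 gene lists were chosen with earlier results of these data known. Genes named per comparison were, among called members with one direction in every experiment, the 6 with the highest WT values and the 6 with the largest change; up to 3 per list; the 5 smallest p-values where under 3 were called; and the 4 lowest and 4 highest ratios among intervals with at least 50 tags per 10 M in 1 library where there was 1 column. Some of these are given by count, a few are not reported here, and values for genes in further tables follow the same choice.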

Additional observations from a re-analysis of the deposited data

Results flagged for a closer look

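At 8 narrow marked peaks the change of RING1B from ESC to day 8 differed between CaPS and WT by the interaction term of the limma fit, with a higher log2 difference in CaPS. The difference of courses was 2.77 at Tox, 2.35 at Fut4, 2.33 at Lrig1, 2.30 at Ralyl, 2.18 at Mecom, 2.08 at Sall2 and 2.07 at Ndnf. Fut4 had 98.6 and 110 tags per 10 M in WT ESC of experiments 3 and 5 and 12.3 and 13.7 at day 8, and 54.4 and 37.2 in CaPS ESC and 26.6 and 34.3 at day 8. Sall2 went from 92.5 and 116 to 43.6 and 21.8 in WT and from 60.5 and 101.3 to 75.6 and 136 in CaPS. Lrig1 went from 39.5 and 62.3 to 30.1 and 16.9 in WT and from 32.6 and 24.8 to 52.7 and 88.1 in CaPS. The fit without the experiment block called none of the 8.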

How the results depend on the processing

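Which peaks pass depends on the scaling, the experiment block and single experiments, and the cause of each shift was not tested. Same-sum scaling (all libraries of a table given equal sums) gave 39 lower narrow marked peaks for CBX7 and a median log2 ratio of −0.0042, edgeR with TMM 189 and −0.12, and DESeq2 116 and −0.13; a pseudocount of 10 gave a median of −0.67. No replicate block gave 1 lower, and leaving out 1 experiment 852 to 1745. For RING1B in ESC the count was 19 with a pseudocount of 10, 25 with a mean of 10 or more, 0 with same-sum scaling, with no replicate block and with edgeR and TMM, 4 with edgeR and the deposited totals, 2 without chromosomes 6 and 8, and 0 to 427 with 1 experiment left out; its median was 0.0038, −0.12 and −0.10 under same-sum, TMM and DESeq2 scaling. Leaving out 1 experiment gave 0 to 164 calls for the difference of CBX7 and RING1B ratios.

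H3K27me3 in ESC had 17, 20 and 2 calls under same-sum, TMM and DESeq2 scaling, a median of 0.0021 under same-sum scaling, and medians of −0.40 to 0.25 with 1 experiment left out. Day-8 RING1B of experiments 3 and 4 had 51, 54 and 27 calls under those scalings and 2 with no replicate block, medians of 0.027 with TMM and 0.074 with DESeq2, and medians of −0.98 to 0.30 with 1 experiment left out.

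In the time course, same-sum, TMM and DESeq2 scaling gave 370, 845 and 456 lower in WT (medians −0.29, −0.74 and −0.46; −1.01 with a pseudocount of 10). In CaPS they gave 267, 431 and 222 lower (medians −0.24, −0.40 and −0.21), and no replicate block gave 407. The difference of courses had 0 higher with no replicate block, 17 with TMM, 18 with DESeq2 and 9 with same-sum scaling, the last beside 8 lower, and medians of 0.053 with same-sum scaling and 0.26 with DESeq2. In time-course ESC the 2 higher peaks became 1 with a pseudocount of 10, 6 with same-sum scaling, and 0 with a mean of 10 or more, no replicate block, TMM, DESeq2 or deposited totals in edgeR, and the DESeq2 median was −0.26. At day 6 the 173 higher became 82, 24 and 20 under same-sum, TMM and DESeq2 scaling, with 25, 10 and 20 lower, 38 with deposited totals in edgeR and 42 with no replicate block. At day 8 the 39 became 8 with no replicate block, and the median was 0.24 with a pseudocount of 10, 0.038, 0.10 and 0.0051 under the 3 scalings, 0.36 with deposited totals in edgeR and 0.35 with 1 experiment left out.

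Requiring H3K27me3 by both assays left 1762 peaks, and an overlap of 50% gave 29.8%, 29.7% and 80.4% for day-8, EB and ESC CUT&RUN RING1B peaks. The CUT&RUN medians of RING1B with a pseudocount of 10 and with same-sum scaling were −0.59 and −0.20 for CaPS to WT, −0.83 and −0.023 for mCaPS to WT, and −0.24 and 0.17 for mCaPS to CaPS. Same-sum scaling gave −0.12 for H3K27me3 CUT&RUN and 0.19 for day-8 H3K27me3. Among named genes, CBX7 turned positive under same-sum scaling at Pou3f1 (0.19), Fgf15 (0.026), Fgf8 (0.31), Aldh1a3 (0.058), Rxra (0.22) and Kit (0.27), under TMM at Pou3f1 (0.046), Fgf8 (0.12), Rxra (0.044) and Kit (0.14), and under DESeq2 at Pou3f1 (0.051), Fgf8 (0.14), Rxra (0.058) and Kit (0.14). Of 1707 values for 182 named results under the alternatives, 1207 kept direction and side of the threshold or, without an adjusted p, stayed within the SE. Of the rest, 255 no longer passed, 50 passed anew and 14 reversed where either fit passed. The other 181 moved beyond the SE without an adjusted p, or changed sign where neither fit passed. Shallow libraries limit weak peaks: a count of 0 allows 11.4 tags per 10 M in CaPS CBX7 of experiment 2 and 14.9 in WT day 6 of experiment 5.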
